A study of Capra hircus with 8 samples.

Results

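Of the 22107 entries in a table of messenger RNA levels from 8-cell goat embryos, 93 were abundant genes known only by a LOC number. A gene was a member if its name was LOC followed by digits, if it was not listed among the annotated long non-coding RNAs, and if it stood at 50 FPKM or more in both libraries of fertilised embryos. FPKM is fragments per kilobase of transcript and per 1000000 fragments, a level set per length so that genes can be compared. Of 4791 LOC-numbered entries outside the long non-coding RNAs, 97 met this level, and 4 of these were on a short list of LOC names left out beforehand. The members were therefore chosen by their values in fertilised embryos, and those values are given below as a description.

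The series compares goat (Capra hircus) embryos from in vitro fertilisation (IVF) with cloned embryos from somatic cell nuclear transfer (SCNT), where an enucleated egg receives a body cell's nucleus. It was designed around long non-coding RNAs in the reprogramming of SCNT embryos during embryonic genome activation. Of the 8 libraries, the 4 from 8-cell embryos have messenger RNA levels here: 2 from IVF embryos and 2 from SCNT embryos, with no other treatment or genotype in their labels. The sources used here do not give the breed, the donor cell type or the number of embryos in a library, nor whether replicates came from separate pools, so p-values cover only the spread between these samples, which may be technical.

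A LOC number is the placeholder that NCBI gives a gene model until it has an approved symbol. Such models are often recent copies of other genes, members of families that expanded in 1 lineage, or pseudogenes, which are copies of a gene that have lost an intact reading frame. Around the 8-cell stage in goat and cattle embryos, transcripts stored by the egg are cleared while the embryo's own genome becomes active. In SCNT embryos the same step has to start from the chromatin of a differentiated cell.

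All 93 members were found in a RefSeq gene table of the goat assembly ARS1.2. RefSeq types 70 of them as protein coding (75.3%), 17 as pseudogenes, 5 as transcribed pseudogenes and 1 as a miscellaneous RNA. Among the 1141 genes with a symbol that met the same level in both IVF libraries, 1128 were protein coding (98.9%) and the other 13 were not found in the table. The members were unevenly placed: 19 lay on chromosome 18 (20.4%), 10 on chromosome 16 (10.8%) and 8 on chromosome 7, while 5 were on unplaced sequence. Chromosome 18 holds 2.72% of the symbol genes at that level and 7.20% of all LOC-numbered entries outside the long non-coding RNAs, and chromosome 16 holds 2.59% of those entries. Reads from near-identical copies may be divided among such genes in a way that depends on the counting, so the level of a single member of a copied family is uncertain. The spans of 15 members overlap another gene, 2 of them each other (LOC102175383 and LOC102170775), and reads in an overlap cannot be assigned to a gene without knowing the counting.

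The read totals behind the scaling, in units of 1000000 reads (M) and recovered from the steps between low FPKM values, were 27.5 and 30.3 M in IVF replicates 1 and 2, and 28.4 and 28.5 M in SCNT replicates 1 and 2. With these totals all 93 members came to whole reads in the 4 libraries within 0.01 read, and none had fewer than 749 reads in an IVF library. Genes at 1 FPKM or more numbered 8984 and 9038 in IVF, against 9883 and 11025 in SCNT. Among 14 listed oocyte and early embryo genes 11 were in the table. They summed to 2570 and 2857 FPKM in IVF against 3291 and 5080 FPKM in SCNT. Their levels were uneven. ZP2 had 905 and 942 FPKM in IVF against 961 and 1279 FPKM in SCNT. ZAR1 had 1.45 and 1.73 FPKM in IVF against 1.31 and 1.29 FPKM in SCNT. It was the only gene of the 11 with a negative log2 difference, and their median was 0.87. MOS had 38.1 and 78.5 FPKM in IVF against 171 and 688 FPKM in SCNT, and was not called. KHDC3L was the 1 gene of that list past the threshold, and it was higher in SCNT. Of 15 fibroblast markers 10 could be tested and 2 were higher in SCNT, TIMP1 and TAGLN, while the list summed to 137 and 130 FPKM in IVF against 107 and 126 FPKM in SCNT. DCN, the most abundant of them, had 94.3 and 85.5 FPKM in IVF against 33.9 and 39.5 FPKM in SCNT and was not called, while the median log2 difference of the 10 tested markers was 0.88. Of 12 cumulus and granulosa markers 10 were in the table, FSHR and AMH were at 0 in every library, none was called, and the sums were 87.9 and 91.9 FPKM in IVF against 64.4 and 97.6 FPKM in SCNT. The 5 blood markers, of which 2 were in the table, summed to at most 1.02 FPKM in any library. The part of other cell types in the results on the members was not tested.

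The 93 members together made up 8.67% and 7.62% of the summed FPKM in IVF, against 6.54% and 6.97% in SCNT. A single gene, LOC102171358, accounted for 2.33%, 2.45%, 2.08% and 1.42% of the sum in IVF replicates 1 and 2 and SCNT replicates 1 and 2. The median of the members' mean IVF levels was 135 FPKM. Of the members, 4 had a mean of 1000 FPKM or more, 29 lay from 200 to 1000 FPKM, and 60 lay under 200 FPKM, down to 53.5 FPKM. The IVF replicates were 2-fold or more apart for 12 members, of which 11 were higher in replicate 1. The LOC-numbered genes just inside the limit and those just outside it had similar values. Just inside were LOC108636260 with 54.8 and 52.2 FPKM in IVF, LOC102175383 with 56.2 and 51.8 FPKM, and LOC102186291 with 50.2 and 58.4 FPKM. Just outside were LOC102173544 with 49.3 and 57.8 FPKM, LOC102176221 with 48.9 and 51.5 FPKM, and LOC108637647 with 48.0 and 53.5 FPKM.

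**Figure D1:**
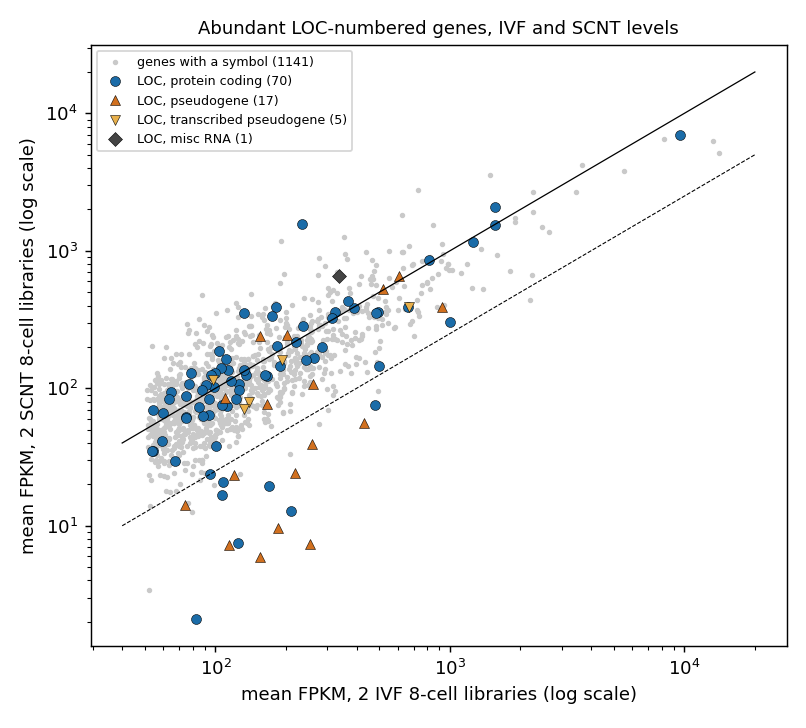
Level of each member in IVF embryos (horizontal, mean FPKM of 2 libraries) against its level in SCNT embryos (vertical, mean FPKM of 2 libraries), on log axes, over the symbol genes at the same level. The solid line marks equal levels and the dashed line a 4-fold lower level in SCNT. Most of the 93 members lie near the solid line, as the symbol genes do, and a separate set lies below the dashed line.

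The most abundant member was LOC102171358, a protein-coding gene on chromosome 15 among OOSP2, MS4A3 and TCN1. It stood at 9665 and 9542 FPKM in IVF against 7914 and 6042 FPKM in SCNT, which gave it rank 3 among all genes in both IVF libraries and rank 2 in both SCNT libraries. Both SCNT values were lower, but the log2 difference of SCNT minus IVF was −0.47 ± 0.41 (SE), with an adjusted p of 0.457 in limma, the linear model fitted over all genes. After quantile normalization, which sets each value by its rank, the difference was 0.30. That sign follows from the ranks above, so nothing is read from it. The next gene, LOC102175427 on unplaced sequence, stood at 1686 and 1441 FPKM in IVF against 1131 and 3023 FPKM in SCNT. There the SCNT libraries lay on either side of the IVF pair.

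LOC102175160, a chromosome 19 gene near STAC2, FBXL20 and MED1, was among the steadiest of the abundant members, with 1670 and 1433 FPKM in IVF against 1486 and 1594 FPKM in SCNT. Its groups overlapped and its log2 difference was −0.01. LOC102186806, next to RRP1 on chromosome 1, had 1390 and 1124 FPKM in IVF against 668 and 1641 FPKM in SCNT, again with the groups overlapping. LOC102183306, between DDIT4L and DNAJB14 on chromosome 6, had 1340 and 655 FPKM in IVF against 234 and 370 FPKM in SCNT. Both SCNT values were below both IVF values, with a log2 difference of −1.67 and an adjusted p of 0.0689 in limma, so it was not called.

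LOC102178151 lies on chromosome 5 between NANOG, a transcription factor of pluripotent cells, and GDF3, a growth factor of the TGF-beta family. It stood at 931 and 701 FPKM in IVF against 631 and 1085 FPKM in SCNT, with a log2 difference of 0.03. Its neighbours were less abundant: NANOG had 17.3 and 2.76 FPKM in IVF against 6.51 and 25.3 FPKM in SCNT, and GDF3 had 55.3 and 57.1 FPKM in IVF against 68.7 and 149 FPKM in SCNT. For the member and for NANOG the groups overlapped, while both SCNT values of GDF3 were above its IVF values.

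Chromosome 7 carried several abundant entries that RefSeq types as pseudogenes. LOC102176222 had 1106 and 745 FPKM in IVF against 302 and 473 FPKM in SCNT, with no overlap and an adjusted p of 0.095 in limma. LOC102191603, a transcribed pseudogene, had 958 and 376 FPKM in IVF against 386 and 400 FPKM in SCNT, and LOC102178167 had 909 and 309 FPKM in IVF against 725 and 583 FPKM in SCNT. In both of these the SCNT values lay inside the range of the IVF values. LOC102170138, a protein-coding gene next to INSR, the insulin receptor gene, had 662 and 322 FPKM in IVF against 142 and 573 FPKM in SCNT, with overlap.

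The other genes among the 15 most abundant were on chromosomes 1, 4, 16, 18 and 19. LOC102168768, near CPOX on chromosome 1, had 764 and 566 FPKM in IVF against 294 and 487 FPKM in SCNT, and LOC102191731 on chromosome 18 had 663 and 330 FPKM in IVF against 112 and 181 FPKM in SCNT. In both, the SCNT pair was below the IVF pair. For LOC102191731 the log2 difference was −1.71 with an adjusted p of 0.066 in limma. LOC102185528, a pseudogene between GNAI1 and GNAT3 on chromosome 4, had 531 and 506 FPKM in IVF against 607 and 447 FPKM in SCNT. LOC102190909, by UNK and GALK1 on chromosome 19, had 473 and 491 FPKM in IVF against 443 and 265 FPKM in SCNT. The groups of LOC102185528 overlapped, and those of LOC102190909 did not.

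**Figure D2:**
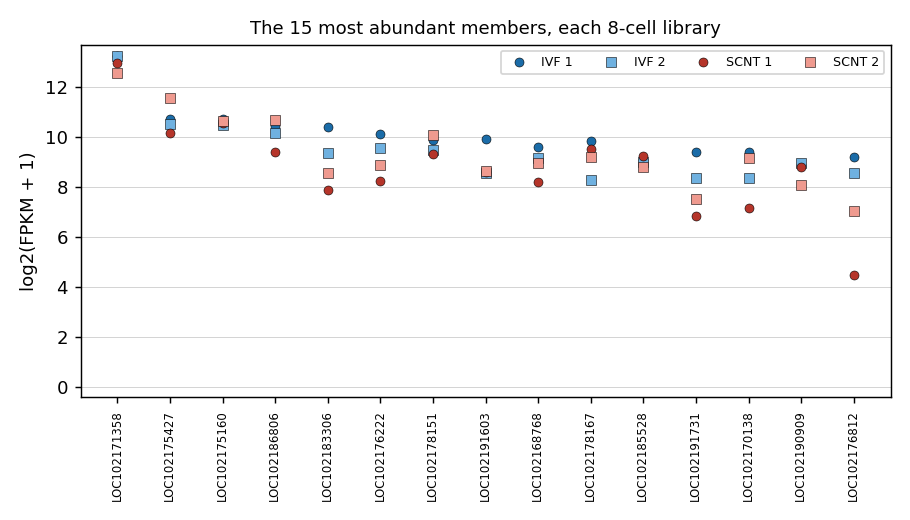
Levels of the 15 members with the highest mean in IVF embryos, as log2(FPKM + 1), 1 point per library and 1 column per gene. The points of the 4 libraries lie close together for LOC102171358 and LOC102175160. The SCNT points lie below the IVF points for LOC102183306, LOC102176222 and LOC102191731.

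Most members differed little between SCNT and IVF embryos, and a minority was many times lower in SCNT, most of all in SCNT replicate 1. The median log2 difference over the 93 members was −0.42, against −0.25 over the 1141 symbol genes at the same level and 0.39 over all 10303 genes tested. The order of the first 2 medians turned when 1 library was left out: it was −0.17 for the members against −0.27 for the symbol genes without IVF replicate 1, and −0.22 against −0.45 without SCNT replicate 1. Choosing genes by a high IVF level favours differences below IVF, so the symbol genes of the same level are the nearer comparison. Both SCNT values were below both IVF values for 38 members (40.9%), against 450 symbol genes (39.4%) and 17.1% of all genes tested. Both SCNT values were above both IVF values for 16 members (17.2%), against 222 symbol genes (19.5%) and 46.9% of all genes tested. The other 39 members overlapped. The members and the symbol genes of the same level also had similar shares within 1.5-fold in all 4 libraries, 18 members (19.4%) and 208 symbol genes (18.2%). At 50 FPKM or more in both SCNT libraries were 64 members (68.8%) and 803 symbol genes (70.4%), while 17 members were below 50 FPKM in both.

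At the far lower end the contrast with the symbol genes depended on which SCNT library was kept. At a log2 difference of −2 or lower, 4-fold or more below IVF, stood 18 members (19.4%), against 14 of the symbol genes at the same level (1.23%) and 1.13% of all genes tested. Without SCNT replicate 1 the contrast nearly closed: the members fell to 11 (11.8%), while the symbol genes rose to 108 (9.47%). Without SCNT replicate 2 it was 19 members (20.4%) against 8 symbol genes (0.701%). At 1 or higher stood 3 members (3.23%), against 57 symbol genes (5.0%) and 26.6% of all genes. Less abundant genes had a similar contrast: of 182 LOC-numbered genes whose lower IVF value was from 10 to 50 FPKM, 21 were at −2 or lower (11.5%), against 18 of 2174 symbol genes in that range (0.828%). Without SCNT replicate 1 these counts were 19 (10.4%) and 57 (2.62%). No test was made of these shares, since the members were chosen on the IVF values that enter the difference. In embryo lysates, fewer cells with a transcript and less of it per cell cannot be told apart.

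Pseudogenes were more frequent among the strongly lower members. The 22 entries of both pseudogene types had a median log2 difference of −1.45, and 10 of them were at −2 or lower. The 70 protein-coding members had a median of −0.25, and 8 of them were at −2 or lower. Without SCNT replicate 1 the counts at −2 or lower were 6 pseudogenes and 5 protein-coding members. The 18 members at −2 or lower had median levels of 170 and 132 FPKM in IVF replicates 1 and 2, and of 3.79 and 24.8 FPKM in SCNT replicates 1 and 2. The gene lengths recovered from the FPKM steps were also shorter, with a median of 755 bases against 1460 bases in the other 75 members. They are annotated lengths and not measured transcripts: for 13 of the 22 pseudogenes the length equals the RefSeq span. These lengths and the read counts below could be off by a common factor.

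In the limma fit 10 members passed an adjusted p of 0.05, 9 of them lower and 1 higher in SCNT, and 26 had an unadjusted p under 0.05. Over all 10303 genes tested 398 were called (3.86%), 311 higher (3.02%) and 87 lower (0.844%). Of the 1141 symbol genes at the same level 9 were called lower (0.789%) and 4 higher (0.351%). Since the IVF values chose the members, nothing is read from the members' count. When each library was centred on its median, 17 members were called, all lower, against 158 higher and 238 lower over all genes. After quantile normalization 1 member was higher and 9 were lower, against 121 higher and 150 lower over all genes. Centring moved the median of all genes from 0.39 to −0.10, and quantile normalization moved it to −0.01, so the differences given here are relative to a median of 0.39.

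Among the called members the largest difference was that of LOC108636438, a pseudogene on chromosome 7. It had 296 and 210 FPKM in IVF against 0.321 and 14.4 FPKM in SCNT, the SCNT values resting on 7 and 315 reads. Both SCNT libraries were far below both IVF libraries, and the log2 difference was −5.80 ± 0.95 (SE; limma adjusted p = 0.0283). LOC108634314 on the X chromosome had 194 and 56.0 FPKM in IVF against 4.60 and 10.4 FPKM in SCNT. It fell by 3.72 on the log2 scale (SE 0.64; limma adjusted p = 0.0317), with no overlap although the IVF libraries differed. LOC102175356 on chromosome 25 had 163 and 175 FPKM in IVF against 3.18 and 35.5 FPKM in SCNT, a log2 difference of −3.78 ± 0.85 (limma adjusted p = 0.04995, just under the threshold).

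The other 6 members called lower lay in 3 groups of neighbouring genes on chromosomes 15, 16 and 18, described with their groups below. For LOC108634314 the call was lost without IVF replicate 1 (adjusted p = 0.0671 in limma) and without SCNT replicate 2 (0.0812), and for LOC102190814 without SCNT replicate 2 (0.0537). The size of the fall depended on the SCNT library kept. Without SCNT replicate 1 the 9 log2 differences ran from −4.03 to −2.22, and without SCNT replicate 2 from −7.57 to −4.23. For LOC108634314 leaving out an IVF library moved the value more, to −2.83 without IVF replicate 1 and to −4.61 without IVF replicate 2. The calls of LOC102173024 and LOC102175356 were also lost with a pseudocount of 0.1 FPKM (limma adjusted p = 0.0584 and 0.0571), and those of LOC102173024, LOC102175356 and LOC108637632 without a variance trend (limma adjusted p = 0.0524, 0.0572 and 0.0518).

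**Figure D3:**
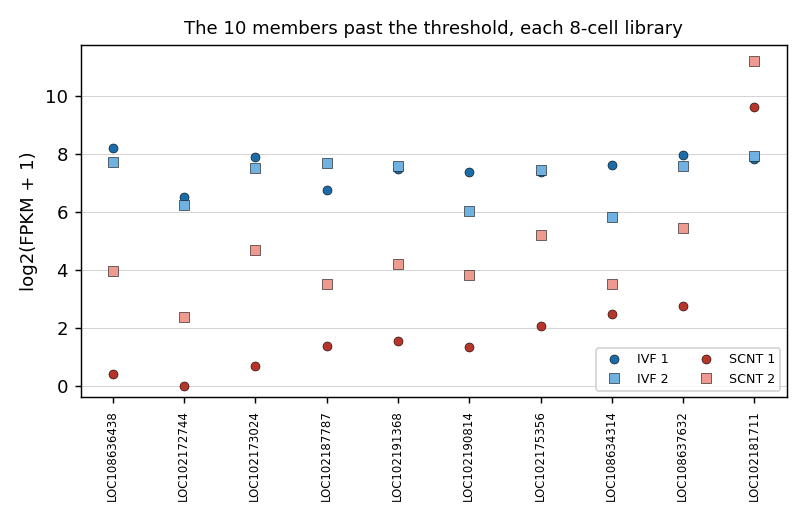
Levels of the 10 members called in the limma fit, as log2(FPKM + 1), 1 point per library and 1 column per gene. In 9 genes both SCNT points lie below both IVF points and SCNT replicate 1 lies below SCNT replicate 2. In LOC102181711 both SCNT points lie above both IVF points.

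The 1 member called higher was LOC102181711 on chromosome 18, a protein-coding gene. It had 226 and 243 FPKM in IVF against 781 and 2369 FPKM in SCNT, a log2 difference of 2.53 ± 0.54 (limma adjusted p = 0.0454). Without IVF replicate 1, IVF replicate 2 or SCNT replicate 2 the adjusted p in limma was 0.112, 0.0759 and 0.0620, and without SCNT replicate 2 the log2 difference was 1.73. After median centring its adjusted p was 0.0529. Its LOC-numbered neighbours were also higher in both SCNT libraries. LOC108638066 had 60.5 and 23.1 FPKM in IVF against 161 and 317 FPKM in SCNT. LOC108638067 had 1.74 and 0.333 FPKM in IVF against 18.7 and 45.5 FPKM in SCNT, and LOC102182249 had 4.91 and 0.157 FPKM in IVF against 83.5 and 111 FPKM in SCNT. These neighbours are not members, because they were under 50 FPKM in at least 1 IVF library.

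Further members with both SCNT values above both IVF values were not called. LOC102181664, whose span overlaps the X-chromosome gene CHM, had 129 and 232 FPKM in IVF against 325 and 458 FPKM in SCNT (limma adjusted p = 0.120). LOC102189078, a miscellaneous RNA next to CDC42 on chromosome 2, had 378 and 295 FPKM in IVF against 701 and 610 FPKM in SCNT (limma adjusted p = 0.131). In both the groups were apart, but the difference did not pass the threshold. LOC102186197 by METAP1 on chromosome 6 had 171 and 179 FPKM in IVF against 219 and 449 FPKM in SCNT, and LOC102186027 by SPG20 on chromosome 12 had 65.7 and 91.0 FPKM in IVF against 113 and 146 FPKM in SCNT.

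The order of genes along the chromosomes placed many members side by side. Members at most 10 places apart in this order were put in the same group, a distance set after the values had been seen. This gave 4 groups of 3 or more members with 23 members in all, and 37 members were in groups of at least 2. Of the 18 members at a log2 difference of −2 or lower, 11 lay in 3 of the 4 groups. In the fourth, on chromosome 18, none did. Without SCNT replicate 1 the median log2 differences of those 3 groups moved from −3.24 to −1.93 on chromosome 15, from −3.11 to −1.77 on chromosome 16 and from −3.68 to −2.39 on chromosome 18.

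The chromosome 16 group spanned 21 annotated genes, of which 7 were members, near PRDM2, PDPN and LRRC38. Its members summed to 1427 and 949 FPKM in IVF against 82.7 and 468 FPKM in SCNT. For 6 of the 7 both SCNT values were below both IVF values, against 39.4% of the symbol genes at the same level and 17.1% of all genes tested. The median log2 difference of the 7 was −3.11 (range −5.19 to −0.01). PRDM2, at the edge of the group, had 14.1 and 19.8 FPKM in IVF against 25.5 and 20.4 FPKM in SCNT, with no value in SCNT below IVF. LOC102172744 had 89.6 and 75.2 FPKM in IVF against 0 and 4.20 FPKM in SCNT. In SCNT replicate 1 it had 0 reads, which allows up to 0.0838 FPKM (3 reads), and in SCNT replicate 2 it had 151 reads. Its log2 difference was −5.19 ± 0.72 (limma adjusted p = 0.0223). LOC102173024 had 236 and 183 FPKM in IVF against 0.586 and 24.9 FPKM in SCNT, from 23 and 981 reads in SCNT, a log2 difference of −5.03 ± 1.06 (limma adjusted p = 0.0445). Both genes were low in both SCNT libraries and lowest in replicate 1.

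The other members of the chromosome 16 group were not called. The most abundant of them, LOC102176812, had 575 and 379 FPKM in IVF against 21.4 and 130 FPKM in SCNT (limma adjusted p = 0.0537). LOC102172469, a pseudogene, had 151 and 89.3 FPKM in IVF against 1.75 and 45.4 FPKM in SCNT, and LOC108637745 had 134 and 78.8 FPKM in IVF against 4.21 and 29.5 FPKM in SCNT. In these 3 the SCNT values were below the IVF values. LOC102179871 had 128 and 73.3 FPKM in IVF against 8.10 and 68.1 FPKM in SCNT, so that SCNT replicate 2 was just below the lower IVF library. LOC102180145 had 113 and 69.7 FPKM in IVF against 46.6 and 165 FPKM in SCNT and was the 1 gene of the 7 with overlap.

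The chromosome 16 group also held 10 LOC-numbered or other genes that were in the table without being members, of which 9 could be tested. Of these 9, 8 had both SCNT values below both IVF values and 1 had both above, against 17.1% and 46.9% of all genes tested. The median log2 difference of the 9 was −2.11. LOC102179309 fell from 24.7 and 24.0 FPKM in IVF to 0.516 and 2.15 FPKM in SCNT, by 3.53 on the log2 scale (limma adjusted p = 0.0234). LOC102178473 rose from 12.9 and 2.57 FPKM in IVF to 114 and 98.9 FPKM in SCNT, a log2 difference of 3.93 ± 0.62 (limma adjusted p = 0.0280). The neighbours thus held a change in each direction within the same stretch of genes.

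The chromosome 15 group spanned 8 genes, and its 4 members are all typed as pseudogenes. They summed to 674 and 556 FPKM in IVF against 52.1 and 191 FPKM in SCNT, with a median log2 difference of −3.24. LOC102187787 had 106 and 203 FPKM in IVF against 1.57 and 10.3 FPKM in SCNT, a log2 difference of −4.78 ± 0.69 (limma adjusted p = 0.0234). LOC108637632 had 247 and 192 FPKM in IVF against 5.72 and 42.4 FPKM in SCNT, a log2 difference of −3.68 ± 0.76 (limma adjusted p = 0.0445). Both fell to levels that no IVF library approached. LOC102188609 had 87.5 and 61.0 FPKM in IVF against 3.37 and 24.8 FPKM in SCNT (limma adjusted p = 0.0642), and LOC102176711 had 233 and 99.9 FPKM in IVF against 41.4 and 113 FPKM in SCNT, with overlap. LOC108637632, LOC102187787 and LOC102188609 shared a recovered length of 585 bases. An equal length does not show that they are similar copies, and whether reads were divided among them was not tested. Of the group's other genes, 3 were in the table and none passed the filter on low values.

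The smaller chromosome 18 group spanned 6 genes near NLRP5, an oocyte gene needed by the early embryo in mice, and ZNF787, ZNF444, ZNF667 and ZNF583. Its 4 members, 3 of them pseudogenes, summed to 688 and 604 FPKM in IVF against 38.9 and 199 FPKM in SCNT, with a median log2 difference of −3.68. LOC102191368 had 179 and 191 FPKM in IVF against 1.92 and 17.3 FPKM in SCNT, a log2 difference of −4.67 ± 0.75 (limma adjusted p = 0.0280). LOC102190814 had 165 and 63.8 FPKM in IVF against 1.55 and 13.05 FPKM in SCNT, a log2 difference of −4.12 ± 0.79 (limma adjusted p = 0.0399). The most abundant, LOC108638098, was also lower in both SCNT libraries, with 244 and 272 FPKM in IVF against 9.55 and 68.9 FPKM in SCNT, and missed the threshold (limma adjusted p = 0.0527). LOC102169898 had 100 and 77.4 FPKM in IVF against 25.9 and 99.4 FPKM in SCNT, with overlap. Both other genes inside the group were called lower: LOC102191077 fell from 18.1 and 25.3 FPKM to 0.356 and 2.43 FPKM (limma adjusted p = 0.0284), and LOC108638123 from 5.69 and 15.5 FPKM to 0.229 and 1.11 FPKM (limma adjusted p = 0.0443).

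The larger chromosome 18 group differed little between the embryos. It spanned 38 genes, and its 8 members summed to 900 and 939 FPKM in IVF against 1137 and 1004 FPKM in SCNT. None of the 8 was called. None had both SCNT values below both IVF values, against 39.4% of the symbol genes at the same level and 17.1% of all genes tested. For 5 of the 8 both SCNT values were above both IVF values, against 19.5% of those symbol genes and 46.9% of all genes tested. The median log2 difference of the 8 was 0.32 (range −0.05 to 0.54), against −0.25 for those symbol genes. Under median centring this median was −0.17. LOC108638084 was nearly the same in every library, with 213 and 227 FPKM in IVF against 214 and 219 FPKM in SCNT. LOC108638026, the 1 pseudogene of the group, had 184 and 221 FPKM in IVF against 269 and 223 FPKM in SCNT. LOC102191785 had 71.8 and 57.3 FPKM in IVF against 95.0 and 92.5 FPKM in SCNT, with SCNT above IVF. Of the 15 other genes of the stretch that could be tested none was called in limma, and their median log2 difference was 0.44.

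**Figure D4:**
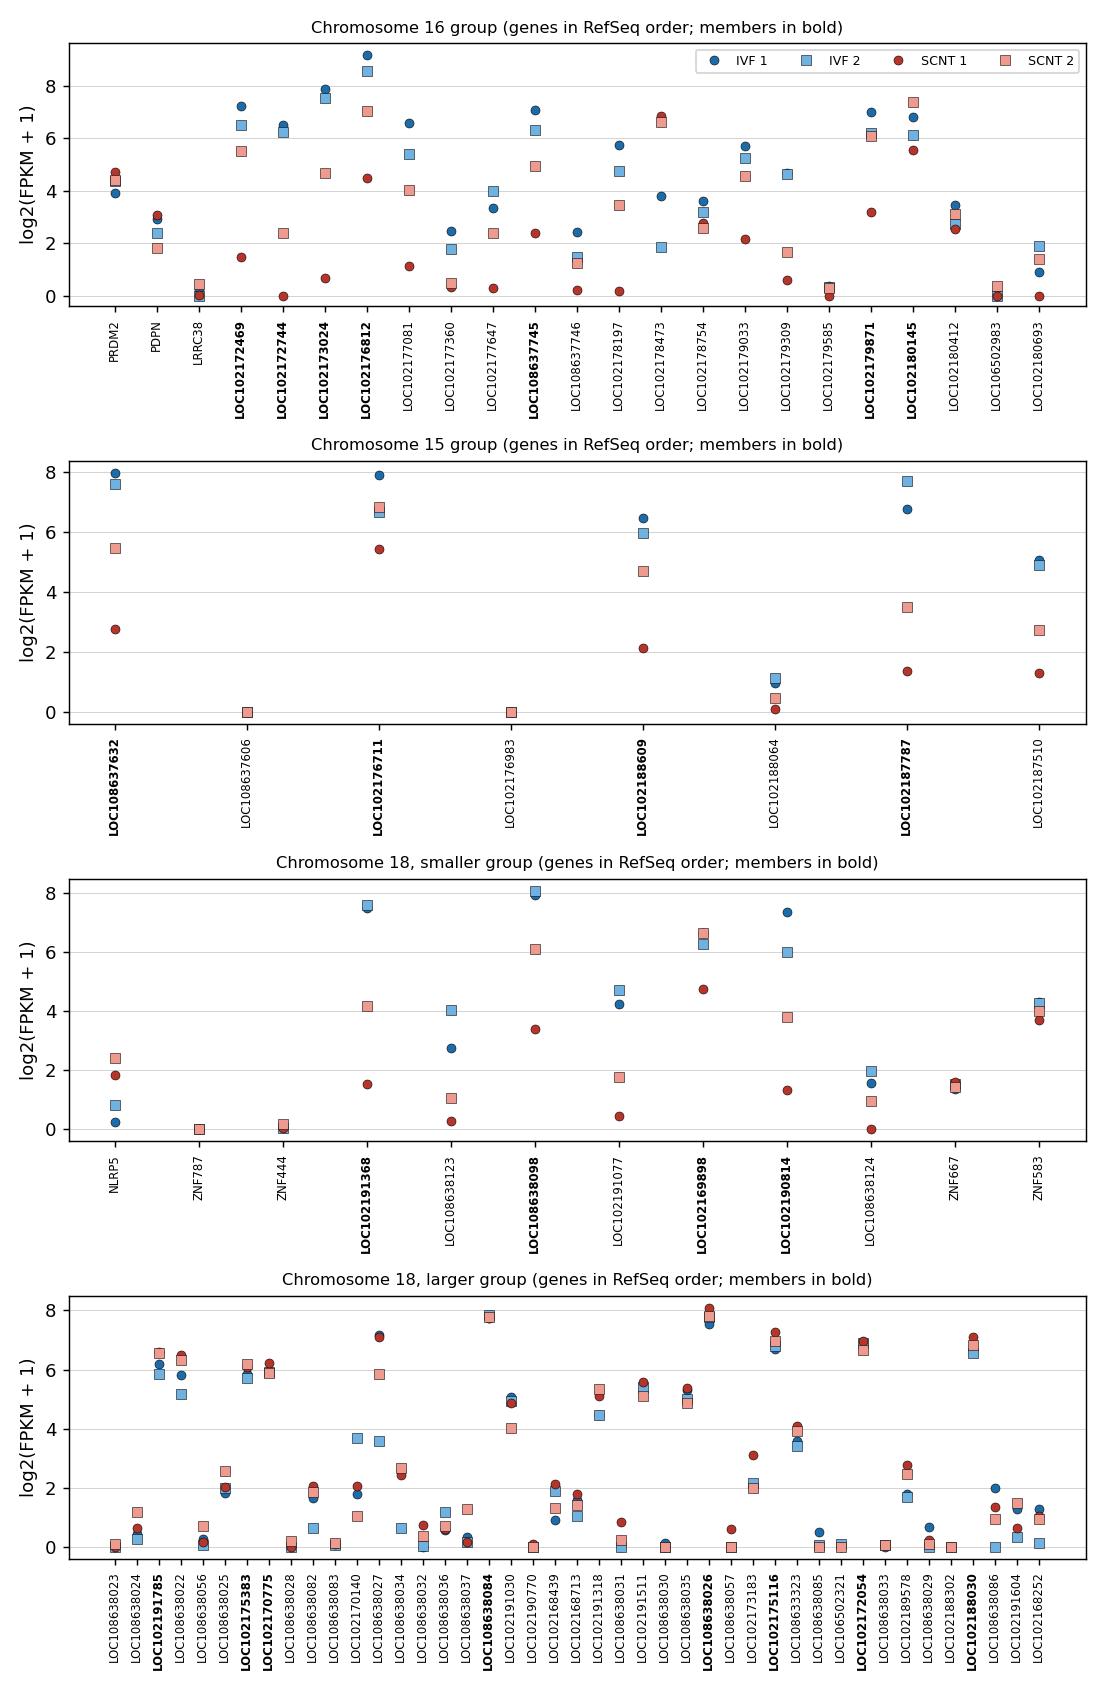
Levels, as log2(FPKM + 1), of the genes in the 4 groups of neighbouring members, 1 panel per group. Genes are in their order along the chromosome, with members in bold and up to 3 flanking genes on each side. Genes without a value are not drawn. The SCNT points of most members lie well below the IVF points in the chromosome 15, chromosome 16 and smaller chromosome 18 panels, and the 4 libraries lie together for the members in the larger chromosome 18 panel, though not for each of its other genes.

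The 2 SCNT libraries differed from each other in the strongly lower members. Of the 18 members at a log2 difference of −2 or lower, 16 were higher in SCNT replicate 2 than in replicate 1, and their median gap between the replicates was 2.55 on the log2 scale. Of the 14 symbol genes at −2 or lower, 2 were higher in replicate 2, and the median gap was −1.17. In the chromosome 16 group all 7 members were higher in replicate 2, by 1.80 to 4.08 on the log2 scale. Over all 93 members the median signed gap was 0.10, against −0.37 for the symbol genes at the same level and 0.25 for all genes tested. Without regard to sign these medians were 0.73, 0.65 and 0.63 between the SCNT replicates. Between the IVF replicates they were smaller, at 0.31, 0.17 and 0.30. A gap of 2 or more occurred in 17 members (18.3%), in 11 symbol genes (0.964%) and in 1.51% of all genes tested. SCNT replicate 2 was also the library with most genes at 1 FPKM or more.

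The strongly lower members outside the 3 groups showed the same order of the SCNT replicates with 2 exceptions. LOC102173807, a chromosome 25 pseudogene, had 680 and 178 FPKM in IVF against 17.7 and 94.4 FPKM in SCNT, and LOC102190382 on chromosome 29 had 154 and 60.7 FPKM in IVF against 11.6 and 30.4 FPKM in SCNT. Neither was called, with adjusted p of 0.0650 and 0.0619 in limma. LOC102190105 and LOC102181365, near LOC102190382, were left out by name and so could not form a group with it. Both SCNT values of each were below both IVF values. The first exception was LOC102168547 on chromosome 10, which had 123 and 67.4 FPKM in IVF against 38.9 and 8.85 FPKM in SCNT. Its neighbour B2M, the light chain of class I major histocompatibility molecules, had 223 and 121 FPKM in IVF against 48.2 and 58.3 FPKM in SCNT, so both genes were lower in both SCNT libraries. The second exception was LOC108634138 on chromosome 28, a transcribed pseudogene with 176 and 88.2 FPKM in IVF against 135 and 5.58 FPKM in SCNT, whose groups overlapped. FAM149B1, whose span it overlaps, stood at 2.67 and 2.42 FPKM in IVF against 2.60 and 1.48 FPKM in SCNT.

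A large gap between the SCNT replicates also occurred without a strong difference of the means. LOC102186576, a chromosome 7 pseudogene, had 84.0 and 135 FPKM in IVF against 7.30 and 163 FPKM in SCNT. SCNT replicate 2 exceeded both IVF libraries while replicate 1 was far below them, a gap of 4.31 on the log2 scale and a log2 difference of −1.54 between the groups.

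**Figure D5:**
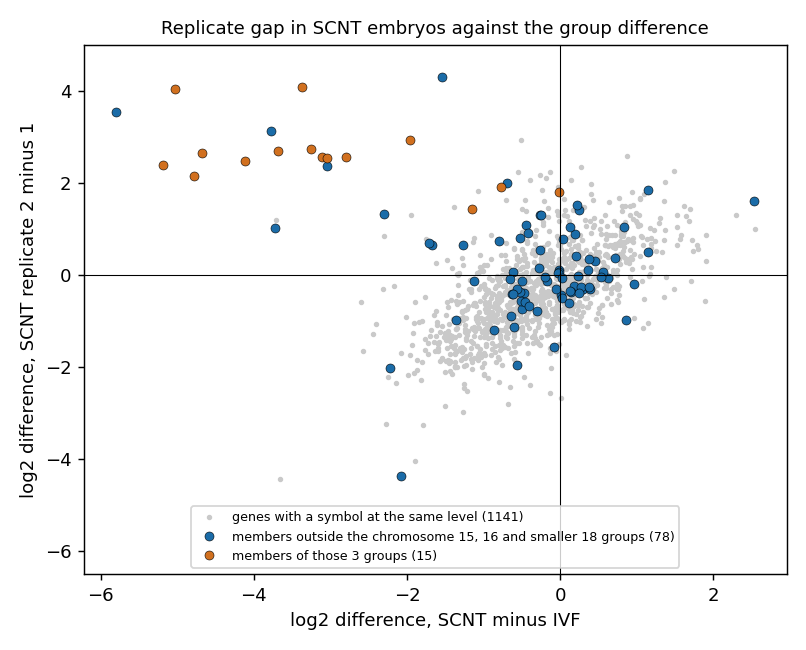
Gap between the SCNT replicates (vertical, log2(FPKM + 1) in replicate 2 minus replicate 1) against the difference of SCNT minus IVF (horizontal, log2), for the members over the symbol genes at the same level. Of the 18 members at −2 or lower, 16 lie above 0 on the vertical axis, and of the 14 symbol genes there 2 do.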

How the data were processed

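Levels were measured by Smart-seq2, which amplifies full-length cDNA from directly lysed embryos, per the labels' protocols. The authors deposited FPKM per gene for the 8-cell libraries, and their programs, per the submitters' processing notes, included HISAT2 2.2.1, HTSeq and fastp, with no role stated. The genome build, annotation and strand setting were not given in the sources used here. Read totals were recovered from FPKM steps and used only to describe depth, gene lengths and floors. The tables of long non-coding RNAs served to leave out their names, and the 4-cell libraries were not used.

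FPKM values were tested as log2(FPKM + 1), keeping genes that reached 1 FPKM in 2 or more of the 4 libraries, with limma 3.58.1 in R 4.3.3 (eBayes with a variance trend, two-sided). P-values were adjusted by Benjamini-Hochberg over all 10303 genes, with a threshold of 0.05. The same steps were run on simulated data with an equal spread in both groups. This checks the code and not how well the model suits these libraries. A fold change on this scale understates that of low genes. The gap between replicates is on the same scale.

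The members and lists were chosen with earlier results of these data known. Named with values are the 15 most abundant members, those past the threshold, the 5 largest differences without overlap in each direction, and 3 genes on each side of the level limit. Genes of the neighbouring groups, members at a log2 difference of −2 or lower and flanking genes were named after their values were seen. Families by RefSeq description could not be assigned, since the gene table used gives no descriptions, and groups of neighbours took their place. RefSeq served for gene types, chromosomes, gene order and spans alone. Of the 22107 names 22065 were found. Replicate numbers were not taken as pairs: the replicate differences of IVF and SCNT correlated at r = 0.117 across 10303 genes, which are not independent, and with 2 pairs this does not pair the libraries. Intervals and floors in reads cover counting error only, since PCR copies cannot be told from separate molecules.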

Additional observations from a re-analysis of the deposited data

How the results depend on the processing

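The number of members called, 10 with the values as reported, was 8 with a pseudocount of 0.1 FPKM, 1 with 5 FPKM, 0 without the filter on low levels (limma; 22 at an unadjusted p under 0.05), 17 after median centring, 20 after rescaling each library to the same sum, 10 after quantile normalization and 6 without a variance trend. Leaving out 1 library gave 11 to 28: 11 without IVF replicate 1, 16 without IVF replicate 2, 28 without SCNT replicate 1 and 13 without SCNT replicate 2. Where an SCNT library is left out, the other is assumed to vary like the IVF pair, and likewise for IVF. Protein-coding members alone gave 5 of 70, and members at 100 FPKM or more gave 7 of 54. With the replicate number as a block, 21 members and 1924 of all genes were called, against 398 without it. The count over all genes was 419, 9, 0 (3661 unadjusted), 396, 1327, 271 and 282 under the first 7 settings in the same order, and 46 to 3834 without 1 library (173, 257, 3834 and 46 in the order above).

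The members' median log2 difference of −0.42 was −0.91 after centring, −0.28 for members at 100 FPKM or more, −0.25 for protein-coding members, and −0.46 to −0.17 without 1 library. Under the 12 alternatives the 10 called members gave 120 values, of which 88 stayed called, 32 did not and 0 changed sign. All 10 calls were lost without the filter. The median of each neighbouring group over 13 settings, the one reported included, was −4.55 to −1.93 on chromosome 15, −4.38 to −1.77 on chromosome 16, −4.98 to −2.39 in the smaller and −0.17 to 0.36 in the larger chromosome 18 group. With neighbours at most 5 or 20 places apart, chosen after seeing the data, 5 groups held 20 members and 4 groups held 25. Members with both SCNT values below both IVF values, 38 as deposited, numbered 34 after rescaling, 59 after centring and 37 after quantile normalization, also chosen after seeing the data. Centring also moved the median of all genes from 0.39 to −0.10. The shares of all genes under these scalings were not worked out, so nothing is read from these counts. Members at a log2 difference of −2 or lower, 18 as reported, numbered 11 to 22 over the 12 alternatives, and symbol genes at the same level, 14 as reported, 8 to 108, the highest without SCNT replicate 1; this count was also added after seeing the data. The cause of these shifts was not tested.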
